A study of Canis lupus familiaris with 124 samples.

Results

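Of the canine cell lines studied, 3 were grown from transitional cell carcinoma (TCC); these lines, TCC0840, TCC1506 and TCC1509, were compared by RNA sequencing with 5 primary TCC tissues (P6.1 and B7 to B10). These 8 samples, taken by their source names with all libraries and sequencing lanes of a sample summed, were part of 17 samples of canine prostate and bladder carcinoma lines and tissues. The comparison asked which genes had moved away from the level of the tumors in culture, which did so in all lines, and which in some lines.

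TCC0840 was established from a fine needle aspirate of the prostate of a neutered male Pitbull Terrier aged 10 years, and no tissue of that tumor was sequenced. TCC1506 came from the urinary bladder tumor B7 of a female Labrador Retriever aged 10 years. TCC1509 came from the prostate tumor P6.1 of a neutered male Bolonka Zwetna aged 9 years. The remaining tissues were bladder tumors of a female Cairn Terrier aged 11 years (B8), a neutered female Miniature Pinscher aged 8 years (B9) and a female German Shepherd aged 8 years (B10). Since TCC0840, TCC1509 and P6.1 are prostate samples, the lines are called TCC lines here and not bladder lines. The labels name no drug treatment, the lines were cultured in Medium 199 with 10% fetal calf serum, and each line stands for the tumor of 1 dog. Passages were 350 and 352 for TCC0840, between 98 and 107 for TCC1506 and between 77 and 85 for TCC1509. RNA was extracted with 1 kit from the lines and another from the tissues, so kit and sample type cannot be told apart.

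The urothelium is a layered epithelium whose cells are held together by desmosomes, tight junctions and adherens junctions, with TP63-positive basal cells resting on a basement membrane of laminin and type IV collagen. TCC arises from this lining and invades a stroma of fibroblasts, vessels and leukocytes, so RNA from a piece of tumor is a mixture of tumor cells and stroma. A line is passaged to keep the tumor cells, and whether other cells remained in these lines was not tested. The genes of the tumor cells themselves, such as junction proteins, integrins, growth factors and mitotic kinases, can also shift in culture.

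The lines were sequenced more deeply than the tissues. The 2 or 3 libraries of each line held 15848441 to 19231681 counts each and 33500670 to 53219861 counts per line, against 11920434 to 18086891 counts per tissue. Values are given as CPM, which divides each count by the sample's TMM-scaled total so that samples of unequal depth can be compared. The order of values in a sentence is TCC0840, TCC1506 and TCC1509 for the lines and P6.1, B7, B8, B9 and B10 for the tissues. A count of 3 corresponded to 0.0625 to 0.0909 CPM in the lines and to 0.163 to 0.223 CPM in the tissues, and line values under this limit rest on fewer than 3 reads. Of 32183 gene identifiers, 1120 could be paired with a symbol, mostly genes that the study itself listed, so named genes are not a random draw.

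The samples were first set against markers of the cell types that a tumor can hold. The 5 epithelial markers with a symbol (EPCAM, CLDN7, OCLN, JUP and TP63) summed to 1531, 2603 and 406 CPM in the lines and to 1112, 1459, 2948, 2832 and 2061 CPM in the tissues, so TCC0840 and TCC1506 lay within the tissues and TCC1509 below all of them. The 5 macrophage markers (CSF1R, C1QB, C1QC, TYROBP and TREM2) had 0 counts in TCC0840 and TCC1506 and 2 counts in TCC1509, and summed to 869, 61.2, 265, 71.1 and 222 CPM in the tissues. The 5 endothelial markers (KDR, TEK, CD93, VWF and ICAM2) summed to 1.33, 1.65 and 2.65 CPM in the lines and 50.0 to 419.8 CPM in the tissues. The 5 fibroblast markers (COL1A1, COL1A2, COL3A1, DCN and SPARC) summed to 1.18, 104 and 1129 CPM in the lines against 3887, 476, 1031, 1358 and 731 CPM in the tissues, so the sum of TCC1509 stood within the range of the tissues. Of that sum COL3A1 gave 631 CPM, DCN 458 CPM and SPARC 39.7 CPM, each within the tissues. COL1A1 and COL1A2 had 0.274 and 0.126 CPM in TCC1509, far below all tissues. The epithelial sums also mix members: JUP gave 1913 CPM in TCC1506, where EPCAM was below all tissues, and TP63 had 4 counts in TCC0840. The tissue B7 had the lowest sum of fibroblast, macrophage and endothelial markers. In such bulk samples fewer cells of a type and less RNA per cell cannot be told apart.

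Across the 13484 genes with at least 1 CPM in all tissues or in at least 1 line, the genes that lay below the tissues in all 3 lines included most collagens and most leukocyte and endothelial genes measured. In all 3 lines, 315 genes (2.34%) lay at least 2-fold below the lowest of the 5 tissues, and 41 genes (0.304%) lay at least 2-fold above the highest. Far more genes left the range of the tissues in some lines: 585 genes (4.34%) were below it in exactly 2 lines and 1375 (10.2%) in exactly 1. Above it were 157 genes (1.16%) in exactly 2 lines and 1291 (9.57%) in exactly 1. In no line beyond 2-fold of the range were 9904 genes (73.45%). TCC1509 was the farthest from the tissues, with 1517 genes below their range (11.3%) against 1107 in TCC0840 (8.21%) and 866 in TCC1506 (6.42%). Above the range were 637 genes in TCC1509 (4.72%), 388 in TCC0840 (2.88%) and 703 in TCC1506 (5.21%), so in TCC1506 the higher genes came nearest in number to the lower ones. In 1 line alone, 391 genes were below the range in TCC0840 (2.9%), 251 in TCC1506 (1.86%) and 733 in TCC1509 (5.44%), and 258 (1.91%), 541 (4.01%) and 492 (3.65%) were above it. These counts describe positions against 5 tissues and carry no test.

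**Figure D1:**
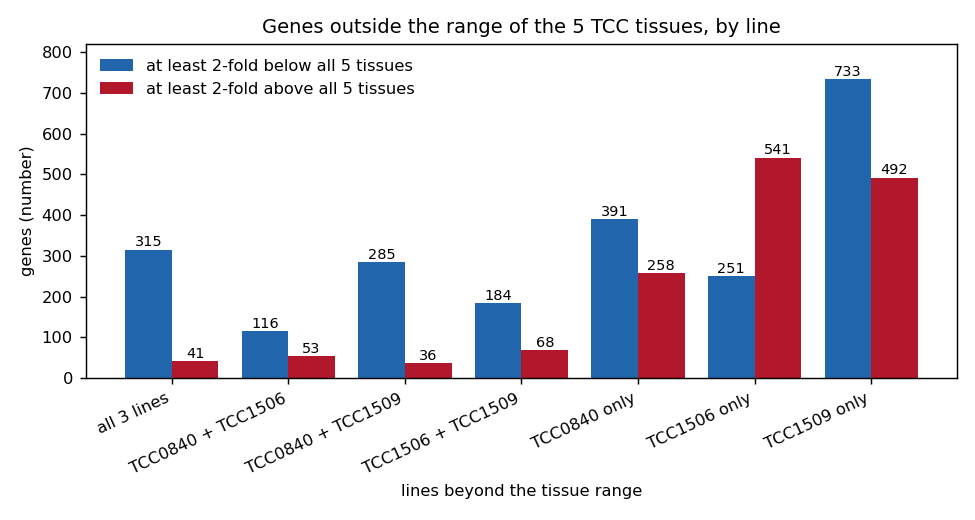
Number of genes at least 2-fold below (blue) or above (red) all 5 TCC tissues, by the lines in which this held. The largest blue bar is TCC1509 alone with 733 genes, and all 3 lines share 315 lower but only 41 higher genes.

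Many of the 315 shared lower genes were close to 0 in culture. Of them, 128 had 0 counts in TCC0840, 94 in TCC1506 and 114 in TCC1509, 46 genes had 0 counts in all 3 lines, and 130 had at most 3 counts in every line. The median gap between a line and the lowest tissue was 4.21, 4.00 and 4.33 on the log2 scale in TCC0840, TCC1506 and TCC1509. B7 was the lowest of the 5 tissues for 199 of the 315 genes. Without B7 the number of genes below the tissues in all 3 lines was 663 and the number above them was 141. Leaving out any tissue can only keep or raise these numbers. Of the 315 genes, 53 had a symbol (5.36% of the 989 genes with a symbol that were measured).

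Tested as 2 groups, 3 lines against 5 tissues, 31 of 12882 genes were lower in the lines (0.241%) and 1 gene was higher (0.00776%) by edgeR's quasi-likelihood test with a 2-fold change or more and 0.01 as the limit of the adjusted p. Of the 31 lower genes, 30 were among the 315 genes below all tissues in all 3 lines. The 13 called genes with a symbol, all lower, encode matrix proteins and enzymes (COL1A2, COL6A1, COL6A2, MMP2, PXDN, LAMA4, C1QTNF6), leukocyte proteins (CSF1R, ITGAX), vessel proteins (VWF, ADGRA2), the MHC class I protein DLA-79 and the guidance protein SEMA6D. The adjusted p of the 32 genes lay between 0.00603 and 0.00972, close to the threshold, and the count moved with the samples: it was 0 without any 1 of the 3 lines or of B8, B9 and B10, 7 without P6.1 and 222 without B7. DESeq2 called 620 lower (4.81%) and 79 higher genes (0.613%). All 32 genes kept their direction and an adjusted p under 0.05 in each of 15 alternative fits. In the 2 dogs that gave both a line and a tissue (TCC1506 with B7 and TCC1509 with P6.1), fitted with the dog as a block, all 32 genes kept their direction, but edgeR called 0 of 13599 genes (845 at an unadjusted p under 0.05). DESeq2 called 489 genes in that paired fit, among them 31 of the 32.

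Taken singly, no line had a gene past the same threshold against the 5 tissues by edgeR, where a single line is assumed to vary like the tissues. At an unadjusted p under 0.05 there were 1419 genes in TCC0840, 1523 in TCC1506 and 2138 in TCC1509, and the smallest adjusted p was 0.123, 0.0120 and 0.0329. Between the lines, 6233 of 13319 genes (46.8%) differed by edgeR over the 8 libraries, which are cultures of the same lines, so this test measures the spread between cultures and not between tumors. It called 3552 genes between TCC0840 and TCC1506, 3942 between TCC0840 and TCC1509 and 4162 between TCC1506 and TCC1509.

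The collagens, which form the fibrils and networks of the stroma, had the highest share of members below the tissues among the 19 gene lists examined. Of the 12 collagens measured, 9 were below all tissues in all 3 lines, 2 in 2 lines and 1 in 1 line, and 3 were called in the test of 2 groups. Over all genes, the shares in 3, 2 and 1 lines were 2.34%, 4.34% and 10.2%, the base for each list that follows. The median log2 fold change of the 12 tested members was -4.55 against -0.01 over all genes tested. COL1A2, a chain of type I collagen, had 0.273, 0.0625 and 0.126 CPM in the lines and 434, 110.0, 210.4, 244 and 134 CPM in the tissues. For COL1A2 the log2 fold change was -10.69 ± 0.91 (adjusted p = 0.00603), and the lowest tissue was still 403-fold above the highest line. COL6A1, a chain of the pericellular type VI collagen, had 0.0909, 0.0833 and 0.0210 CPM in the lines and 163, 28.9, 71.4, 74.5 and 50.8 CPM in the tissues, with no overlap.

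The lines differed more for COL1A1, the partner chain of COL1A2. COL1A1 had 0.0909, 37.8 and 0.274 CPM in the lines against 644, 163, 196, 327 and 115 CPM in the tissues. TCC1506 thus kept a level 3.04-fold under the lowest tissue while the other lines were near 0. Its log2 fold change of -4.66 ± 1.83 did not pass the test (adjusted p = 0.277). COL4A1, the type IV collagen of basement membranes, gave 1.000, 46.1 and 0.442 CPM in the lines and 926, 165, 771, 318 and 288 CPM in the tissues, again with TCC1506 nearest to them. COL3A1, a fibrillar collagen of loose stroma, was the exception in TCC1509: its level was 631 CPM there, within the tissues' 160.4 to 782 CPM, against 0.636 CPM in TCC0840 and 64.0 CPM in TCC1506. The summed level of all 15 collagens with a symbol was 37.3, 189.9 and 637 CPM in the lines and 1044 to 3517 CPM in the tissues.

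Enzymes that cut and cross-link the matrix were below the tissues in all lines for some members and in 1 line for others. Of 16 measured, 4 were below all tissues in all 3 lines (MMP2, PXDN, LOXL2 and PCOLCE), 1 in 2 lines, 4 in 1 line, and 7 in none and above in none. MMP2, the gelatinase that degrades denatured collagen and type IV collagen, had 0, 0.188 and 0.0631 CPM in the lines and 290.3, 167, 68.5, 220.3 and 69.4 CPM in the tissues. For MMP2 the log2 fold change was -10.93 ± 1.19 (adjusted p = 0.00762). PXDN, the peroxidase that cross-links type IV collagen, had 0, 0 and 1 count in the 3 lines and 42.7, 4.73, 33.9, 23.1 and 13.5 CPM in the tissues. For PXDN the log2 fold change was -11.04 ± 1.27 (adjusted p = 0.00783). LOXL2, a lysyl oxidase, had 3.12, 0.208 and 0.421 CPM in the lines and 81.7, 58.2, 57.2, 81.8 and 59.3 CPM in the tissues, an adjusted p of 0.0181. The collagen chaperone SERPINH1 was low in TCC0840 alone, at 47.0 CPM against 278 and 268 CPM in the other lines and 102 to 469 CPM in the tissues.

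The proteoglycans and matrix glycoproteins were below the tissues in like numbers in the 3 lines, at 9 of 16 measured in TCC0840, 8 in TCC1506 and 7 in TCC1509, whereas DCN, BGN and SPARC lay within the tissues in TCC1509 alone. Of the 16, 2 (POSTN and EFEMP2) were below all tissues in all 3 lines and 8 in exactly 2 lines. POSTN, periostin, had 0.0303, 0 and 0.126 CPM in the lines and 75.0, 17.5, 17.5, 12.6 and 21.8 CPM in the tissues. DCN, the small proteoglycan decorin that binds collagen fibrils, was all but absent in TCC0840 and TCC1506, with 2 and 1 counts, and stood at 458 CPM in TCC1509, above 4 of the 5 tissues (1376, 3.90, 23.0, 81.8 and 31.4 CPM). The difference between TCC1509 and TCC1506 was 13.90 ± 0.63 on the log2 scale (adjusted p = 1.32e-07 by edgeR over libraries). BGN, the related proteoglycan biglycan, followed the same order with 0, 1.71 and 80.5 CPM in the lines and 15.2 to 1159 CPM in the tissues. SPARC, a collagen-binding glycoprotein, had 0.121, 1.63 and 39.7 CPM and 39.1 to 652 CPM. Of the 5 laminin chains measured, LAMA4, found in vessel and muscle basement membranes, was close to 0 in all 3 lines, at 0.0909, 0.0208 and 0.168 CPM against 114, 16.6, 92.9, 39.8 and 74.8 CPM (log2 fold change -9.61 ± 1.08, adjusted p = 0.00762), whereas LAMB1 lay within the tissues' 529 to 1367 CPM in TCC1506 and TCC1509.

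**Figure D2:**
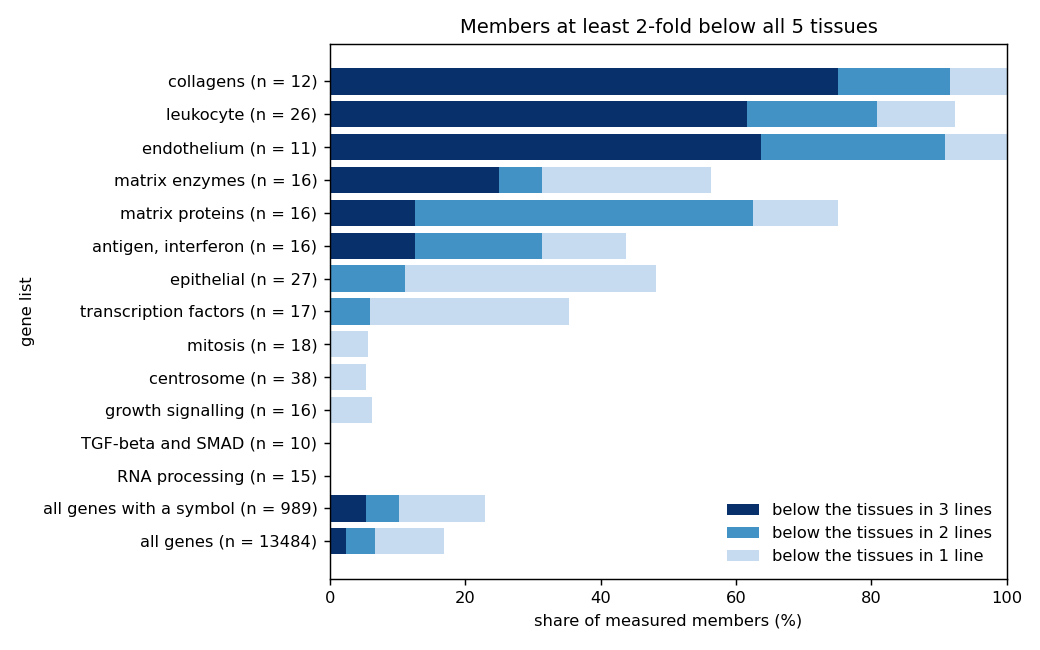
Share of the measured members of each gene list that lay at least 2-fold below all 5 tissues, in 3, 2 or 1 of the lines; n is the number of members measured. The collagen, endothelial and leukocyte lists reach 75.0%, 63.6% and 61.5% in all 3 lines, against 2.34% of all genes and 5.36% of all genes with a symbol.

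Leukocyte genes were below the tissues in most cases. Of 26 measured, 16 were below all tissues in all 3 lines, 5 in 2 lines and 3 in 1 line. Of the 29 tested, 23 had an unadjusted p under 0.05 in the lower direction (9.26% of all genes) and 2 were called, and the median log2 fold change was -6.79. Genes entered with at least 10 counts in all 5 tissues or all 3 lines. Only 12 leukocyte genes had enough counts in a line to be tested between the lines, so many of the 29 entered through the tissues, where they are high. The same applies to collagens and endothelial genes, with 7 and 6 tested between the lines. These counts are therefore a description. CSF1R, the receptor for the macrophage growth factor CSF1, had 0, 0 and 2 counts in the lines and 80.4, 10.7, 47.8, 25.1 and 30.6 CPM in the tissues. For CSF1R the log2 fold change was -11.09 ± 1.25 (adjusted p = 0.00762). C1QB, a chain of complement C1q made by macrophages, had 0 counts in all 3 lines and 331, 23.2, 103, 19.9 and 88.3 CPM in the tissues, so that its lowest tissue was at least 219-fold above a level of 3 counts per line (adjusted p = 0.015). Among the tissues, C1QB was highest in P6.1 and lowest in B9 and B7. ITGAX, the integrin chain CD11c of dendritic cells and macrophages, had 0, 0 and 1 count in the lines and 40.9, 4.29, 12.1, 11.5 and 20.9 CPM in the tissues. For ITGAX the log2 fold change was -10.66 ± 1.3 (adjusted p = 0.00972).

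LAPTM5 and IL2RG were still read in a line. LAPTM5, a lysosomal protein of blood cells, had 0.0303, 0.896 and 4.44 CPM in the lines, highest in TCC1509, and 122, 17.0, 85.9, 36.8 and 118 CPM in the tissues, and it was below all tissues in each line. SPI1, the transcription factor PU.1 of myeloid cells, had 0, 1 and 0 counts in the lines and 1.47 to 18.5 CPM in the tissues. IL2RG, the shared cytokine receptor chain of lymphocytes, had 0, 0 and 1.33 CPM in the lines and 1.73, 1.34, 3.69, 0.935 and 12.4 CPM in the tissues, so TCC1509 lay inside the range of the tissues. The 44 leukocyte genes with a symbol summed to 333, 113 and 32.3 CPM in the lines and 406 to 4349 CPM in the tissues, and 268 CPM of the TCC0840 sum came from CD74, which epithelial cells can also make.

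Vessel genes were also below the tissues in most cases. Of 11 endothelial genes measured, 7 were below all tissues in all 3 lines, 3 in 2 lines and 1 in 1 line, 2 were called, and the median log2 fold change was -6.28. VWF, the von Willebrand clotting factor of endothelial cells, had 1.21, 1.38 and 2.42 CPM in the lines and 173, 30.3, 269.6, 184 and 161 CPM in the tissues. For VWF the log2 fold change was -6.80 ± 0.84 (adjusted p = 0.00972). KDR, the main VEGF receptor of blood vessels, had 0, 0.188 and 0.0210 CPM in the lines and 36.2, 14.5, 113, 72.3 and 49.0 CPM in the tissues and missed the threshold by little. For KDR the log2 fold change was -9.68 ± 1.32 (adjusted p = 0.0106, and 1.90e-21 by DESeq2). The lymphatic receptor FLT4 differed from KDR in being kept by TCC1506 at 30.6 CPM, within the tissues' 11.8 to 35.2 CPM, against 4.09 and 3.96 CPM in TCC0840 and TCC1509.

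Smooth muscle genes could be read for 3 members only, and none was below the tissues in all lines. ACTA2, smooth muscle actin, had 0.485, 14.8 and 0.0421 CPM in the lines and 120.3, 12.7, 45.5, 11.6 and 47.1 CPM in the tissues, so TCC1506 stood within the tissues. FLNC, the muscle filamin, was above all tissues in all 3 lines, with 127, 32.4 and 42.5 CPM against 3.45 to 32.2 CPM, but by at least 2-fold in TCC0840 alone. For FLNC the log2 fold change was 2.22 ± 0.75 (adjusted p = 0.206 by edgeR).

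**Figure D3:**
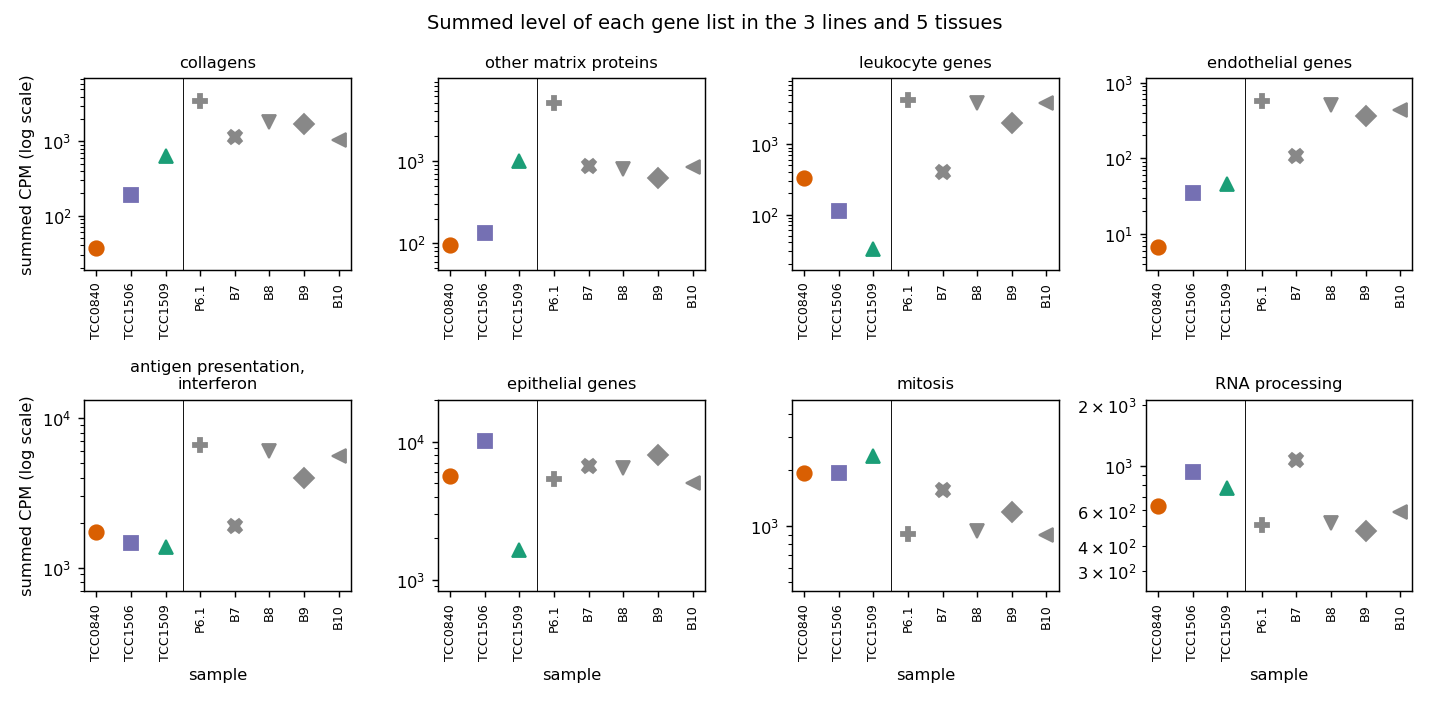
Summed CPM (log scale) of the members of 8 gene lists in each of the 3 lines (coloured) and 5 tissues (grey). The lines lie below every tissue for collagens, leukocyte, endothelial and antigen presentation genes, above every tissue for mitosis genes, and TCC1509 alone lies below the tissues for epithelial genes.

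Of the antigen presentation and interferon genes, several lay below the tissues, and part of this list is not restricted to stromal cells. Of 16 measured, 2 were below all tissues in all 3 lines (DLA-12 and DLA-79), 3 in 2 lines and 2 in 1 line, and 9 in none. Over all genes, the shares in 3, 2 and 1 lines were 2.34%, 4.34% and 10.2%. The median log2 fold change was -1.15, and 8 of the 16 tested had an unadjusted p under 0.05, all lower (9.26% of all genes). DLA-79, an MHC class I gene, had 1, 0 and 1 count in the lines and 50.1, 9.28, 86.8, 29.3 and 83.7 CPM in the tissues. For DLA-79 the log2 fold change was -11.47 ± 1.27 (adjusted p = 0.00762). DLA-12, another MHC class I gene, kept 71.7, 5.58 and 82.1 CPM in the lines against 1194, 284, 835, 574 and 859.6 CPM in the tissues. For DLA-12 the log2 fold change was -4.00 ± 0.93 (adjusted p = 0.0678, and 1.28e-05 by DESeq2). TCC1506 was thus the lowest for this gene. Its difference from TCC0840 was -3.70 ± 0.24 on the log2 scale (adjusted p = 3.26e-06 over libraries). The DLA class I genes are close copies, and the authors' counting could have split reads between them.

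MHC class II genes separated the lines. CD74, the invariant chain that escorts class II molecules, had 268, 74.8 and 0.884 CPM in the lines and 1826, 111, 2641, 1256 and 1858 CPM in the tissues. DLA-DRA, the class II alpha chain, had 20.4, 0 and 0.0631 CPM and 1049.5, 37.3, 524, 437 and 1265 CPM. TCC0840 read both, TCC1506 read CD74 but had 0 counts of DLA-DRA, and TCC1509 had close to neither. For CD74 the difference of TCC1509 from TCC0840 was -8.31 ± 0.40 (log2, adjusted p = 2.74e-07 over libraries). IFNGR2, a chain of the interferon gamma receptor, was below all tissues by 2-fold in TCC1506 and TCC1509, with 122, 77.2 and 70.4 CPM against 197, 313, 336, 277 and 196 CPM.

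The study's own gene lists were read in samples that it had not used to choose them. The study chose its TCC genes on TCC1506, TCC1509, B7 and P6.1, and 15 of its enriched TCC terms are listed whole. In TCC0840 against B8, B9 and B10, 67 of the 77 measured genes of these terms (87.0%) lay at least 2-fold below all 3 tissues, against 12.8% of all 12796 genes measured there. All 12 genes for the defense response to virus, all 7 for negative regulation of viral genome replication and all 7 for negative regulation of angiogenesis were below the tissues in TCC0840, against 9 of 13 for integrin-mediated signaling and 6 of 9 for cell-matrix adhesion. The study had chosen these genes as differing between lines and tissues, so the counts are a description and carry no test. In the prostate adenocarcinoma (PAC) terms, chosen on other dogs, 76 of 204 measured genes (37.3%) were below all 5 TCC tissues in all 3 TCC lines, 56 in 2 lines and 44 in 1. Over all 13484 genes measured there, the shares were 2.34%, 4.34% and 10.2%.

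Fewer genes were above the tissues in all lines than below them. Among genes with a symbol, 2 were at least 2-fold above all 5 tissues in all 3 lines, and both are named after their values were seen. SAMD4A, an RNA-binding repressor of translation, had 23.4, 21.6 and 22.7 CPM in the lines and 6.47, 9.66, 2.55, 2.67 and 6.70 CPM in the tissues. For SAMD4A the log2 fold change was 1.86 ± 0.49 (adjusted p = 0.102). CTXN1, which encodes cortexin, had 2.30, 2.85 and 4.23 CPM and 0.693, 1.09, 0.271, 0.601 and 0.298 CPM. For CTXN1 the log2 fold change was 2.25 ± 0.50 (adjusted p = 0.0557). The single gene called as higher in the test of 2 groups has no symbol in the files (ENSCAFG00000006965), with 131, 170 and 234 CPM in the lines and 17.4, 24.2, 19.0, 10.1 and 13.7 CPM in the tissues. In the other direction, JARID2, a cofactor of the Polycomb complex that is also named after its values were seen, was below all tissues in all lines. JARID2 had 14, 19.1 and 13.3 CPM against 39.0, 39.0, 67.3, 76.0 and 42.1 CPM (log2 fold change -1.93 ± 0.38, adjusted p = 0.0352 by edgeR). The lowest tissue was 2.04-fold above the highest line. Whether the lower JARID2 level came from the tumor cells or from a lack of other cell types was not tested.

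**Figure D4:**
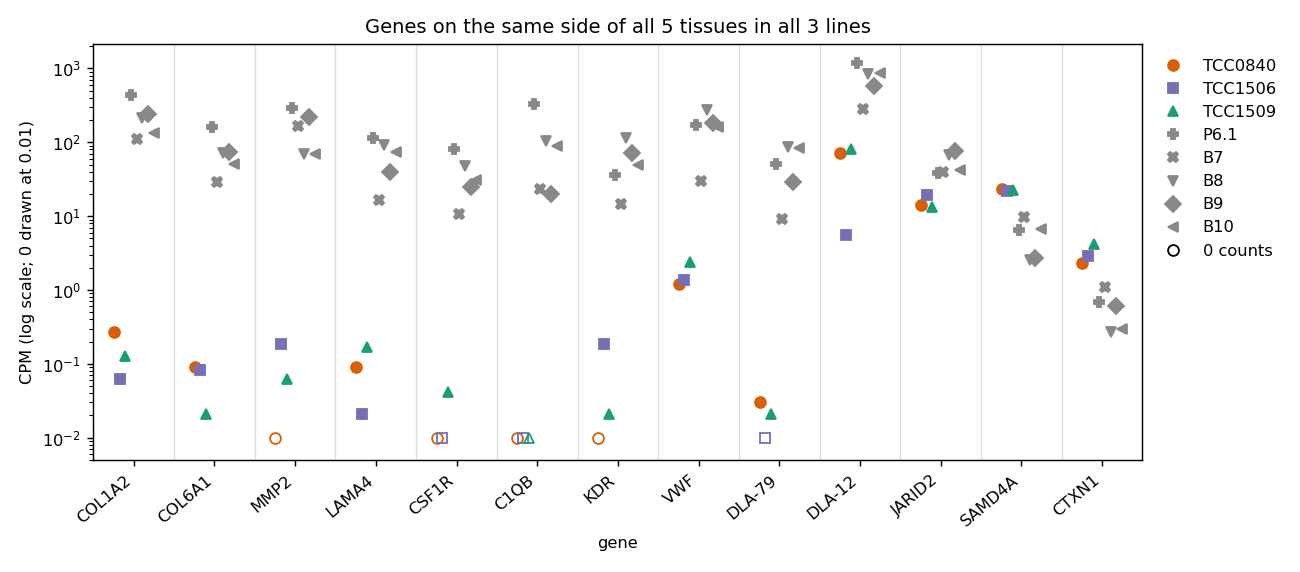
CPM (log scale, 0 drawn at 0.01 as open symbols) of 13 genes in the 3 lines and 5 tissues. For COL1A2 to DLA-79 the lines lie more than 10-fold under the lowest tissue, for DLA-12 and JARID2 the gaps are 3.46-fold and 2.04-fold, and SAMD4A and CTXN1 lie above all tissues.

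Mitotic genes had higher values in the lines, though no member passed the test. Of 17 tested, 0 were called by edgeR and 0 by DESeq2, and 6 had an unadjusted p under 0.05, all in the higher direction (6.25% of all genes), with a median log2 fold change of 0.79. The 18 genes with a symbol summed to 1935, 1928 and 2368 CPM in the lines and 902, 1567, 939.7, 1194 and 894 CPM in the tissues, so every line was above every tissue. Singly, 13 of the 18 members were in no line beyond 2-fold of the range, near the share of all genes (73.45%). CKAP5, which builds spindle microtubules, had 259, 374 and 257 CPM in the lines and 78.6, 152, 115, 139 and 76.7 CPM in the tissues without overlap. For CKAP5 the log2 fold change was 1.25 ± 0.31 (adjusted p = 0.0881, and 0.0106 by DESeq2). NEK2, a kinase of centrosome separation, had 90.6, 74.1 and 82.7 CPM and 4.85, 38.9, 27.8, 35.3 and 31.6 CPM, the lowest of these in P6.1. AURKA, a spindle pole kinase, overlapped, with 36.7, 67.8 and 66.2 CPM in the lines and 4.10 to 86.3 CPM in the tissues, of which B7 was the highest. The 38 centrosome genes summed to 1712, 1589 and 2597 CPM in the lines against 1212 to 1512 CPM in the tissues, with 0 called by edgeR and 0 by DESeq2, 4 members higher and 1 lower at an unadjusted p under 0.05, and 30 members in no line beyond 2-fold of the range, also near that share.

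For none of the 27 epithelial genes measured were all 3 lines below the tissues, and edgeR called 0 of the 26 tested and DESeq2 0, with 4 lower and 1 higher at an unadjusted p under 0.05. TCC1509 was below all tissues for 13 of them, TCC0840 for 2 and TCC1506 for 1, and TCC1506 was above for 5. Over all 13484 genes, 11.3%, 8.21% and 6.42% were below in TCC1509, TCC0840 and TCC1506, and 5.21% were above in TCC1506. The count in TCC0840 is thus near its share over all genes. Their median log2 fold change per line was -0.53, 0.60 and -2.59, against -0.15, -0.07 and -0.11 over all genes, and their summed level was 5663, 10059 and 1639 CPM in the lines and 5035 to 8041 CPM in the tissues. Of the 36 genes with a symbol that were low in TCC1509 alone, within the tissue range in the other lines and different from both over libraries, CLDN7, FOLH1, RAB20, TNK1 and ARFGEF3 were among those farthest below the tissues.

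CLDN7, the tight junction claudin, had 134, 85.7 and 0.168 CPM in the lines and 82.1, 149.9, 138, 105 and 131 CPM in the tissues, a 488-fold gap between TCC1509 and the lowest tissue, while the other lines lay inside. FOLH1, the prostate-specific membrane antigen, had 55.9, 54.2 and 0.0210 CPM in the lines and 17.8, 14.2, 165, 89.8 and 68.6 CPM in the tissues, of which P6.1 is the tumor TCC1509 came from. CLDN7 and FOLH1 were therefore present in P6.1 and in both other lines, and at 8 or fewer counts in TCC1509. RAB20, a vesicle GTPase, had 19.3, 7.42 and 0 CPM in the lines and 5.57 to 25.4 CPM in the tissues. TNK1, a tyrosine kinase, had 35.8, 46.0 and 0.0631 CPM and 16 to 54.2 CPM.

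EPCAM, the epithelial adhesion molecule, was nearer to the tissues in TCC1509, at 29.1 CPM, a level 10.8-fold under the lowest tissue, and TCC1506 was below the tissues too but within 2-fold (555, 161 and 29.1 CPM in the lines, 399, 316, 1955, 1826 and 1446 CPM in the tissues). TP63, the master regulator of basal cells, was high in TCC1506 and read from 4 counts in TCC0840 and 0 counts in TCC1509, with 0.121, 347 and 0 CPM in the lines and 42.4, 178, 35.8, 56.4 and 10.0 CPM in the tissues. The TP63 level in TCC1506 varied between its libraries from 161 to 497 CPM. TMPRSS2, a serine protease of luminal epithelium, had 187, 2.29 and 0 CPM in the lines and 459, 9.15, 671, 1817 and 798 CPM in the tissues. TMPRSS2 was thus low in both TCC1506 and its tumor B7, whereas TCC1509 had none of the reads that its tumor P6.1 had. The epithelial genes MAL2, F11R, MALL and OVOL2 were at least 2-fold below all tissues in TCC1509 alone, as was ITGB6, the integrin chain of wounded epithelium, at 3.60 CPM against 29.0 to 194 CPM.

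CCND1, TCF7 and CDH6 were at least 2-fold above the tissues in TCC1509 alone. CCND1, cyclin D1, had 129.5, 94.7 and 396 CPM in the lines and 160.3, 101, 21.8, 18.2 and 19.9 CPM in the tissues, and TCC1509 exceeded TCC0840 by 1.51 ± 0.35 (log2, adjusted p = 0.00515 over libraries). TCF7, a Wnt pathway transcription factor, had 1.85, 1.35 and 50.0 CPM and 0.819 to 8.66 CPM. CDH6, a cadherin of developing kidney, had 25.5, 48.9 and 212 CPM in the lines and 66.0, 26.4, 1.19, 0.935 and 1.27 CPM in the tissues. For CDH6 the prostate tumor P6.1 and B7 were far above B8, B9 and B10. SNAI2, a repressor of epithelial genes, was high in TCC1506 and TCC1509 and in their tumors, B7 and P6.1, with 12.2, 129.7 and 131 CPM in the lines and 127, 106, 25.9, 13.2 and 12.8 CPM in the tissues.

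JUP, PKP3, VEGFA and SLC29A1 were at least 2-fold above the tissues in TCC1506 alone, and PKP2 in TCC1506 and TCC0840. JUP, plakoglobin, had 749.7, 1913 and 356 CPM in the lines and 523, 774, 697, 621 and 204 CPM in the tissues. PKP3, a desmosomal plakophilin, had 289, 539 and 37.1 CPM and 69.6, 211, 141, 125 and 153 CPM. PKP2, another plakophilin, had 97.3, 108 and 37.5 CPM and 18.4, 2.62, 17.4, 29.2 and 2.38 CPM. VEGFA, the main angiogenic growth factor, had 57.6, 1538 and 557 CPM and 175, 415, 152, 43.9 and 168 CPM, 3.71-fold above the highest tissue in TCC1506. PKP3 in TCC0840 and PKP2 and VEGFA in TCC1509 were also above every tissue, but by less than 2-fold. SLC29A1, a nucleoside transporter of the cell surface, had 3131, 13730.2 and 3392 CPM in the lines and 1975, 2804, 2195, 1407 and 4585 CPM in the tissues, 2.99-fold above the highest tissue. TCC1506 exceeded TCC0840 by 2.10 ± 0.22 (log2, adjusted p = 5.27e-05 over libraries). Some genes with a symbol left the tissue range in TCC1506, lay within it in both other lines and differed from both over libraries. Among these only, FEZ1, PDGFB, SHOX2, BSN, SLC29A1 and MRPL2 lay farthest from the tissues. FEZ1, an adaptor of axonal transport, was at 20.2 CPM in TCC1506 and under 1 CPM in every other sample. PDGFB, the platelet-derived growth factor chain, was instead low in TCC1506, at 37.6, 0.667 and 26.2 CPM in the lines and 81.9, 47.7, 22.8, 9.62 and 17.6 CPM in the tissues. So was SHOX2, a homeobox factor, at 6.45, 0.250 and 16.5 CPM against 5.37 to 81.5 CPM.

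In TCC0840, for which no tumor was sequenced, the genes with a symbol that lay farthest from the tissues in this line alone were SULF1, GM2A, LOXL4, PYROXD2, ARMCX3 and HMGN3, all lower. SULF1, which trims heparan sulfate, had 0 counts in TCC0840 and 191 and 396 CPM in the other lines, with 74.9, 621, 3.79, 3.61 and 17.1 CPM in the tissues. GM2A, the ganglioside activator of lysosomes, had 0.666, 322 and 140.3 CPM in the lines and 1417, 139, 285, 451 and 19.4 CPM in the tissues. LOXL4, another lysyl oxidase, had 0.121, 49.5 and 18.6 CPM in the lines and 8.76 to 73.9 CPM in the tissues. ARMCX3, a protein of the mitochondrial surface, had 0.0606, 18.8 and 29.1 CPM in the lines and 35.5, 30.5, 2.87, 35.5 and 29.0 CPM in the tissues, with B8 far under the other tissues. The libraries of TCC0840 belong to passages far above those of TCC1509, and line and passage number cannot be told apart.

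**Figure D5:**
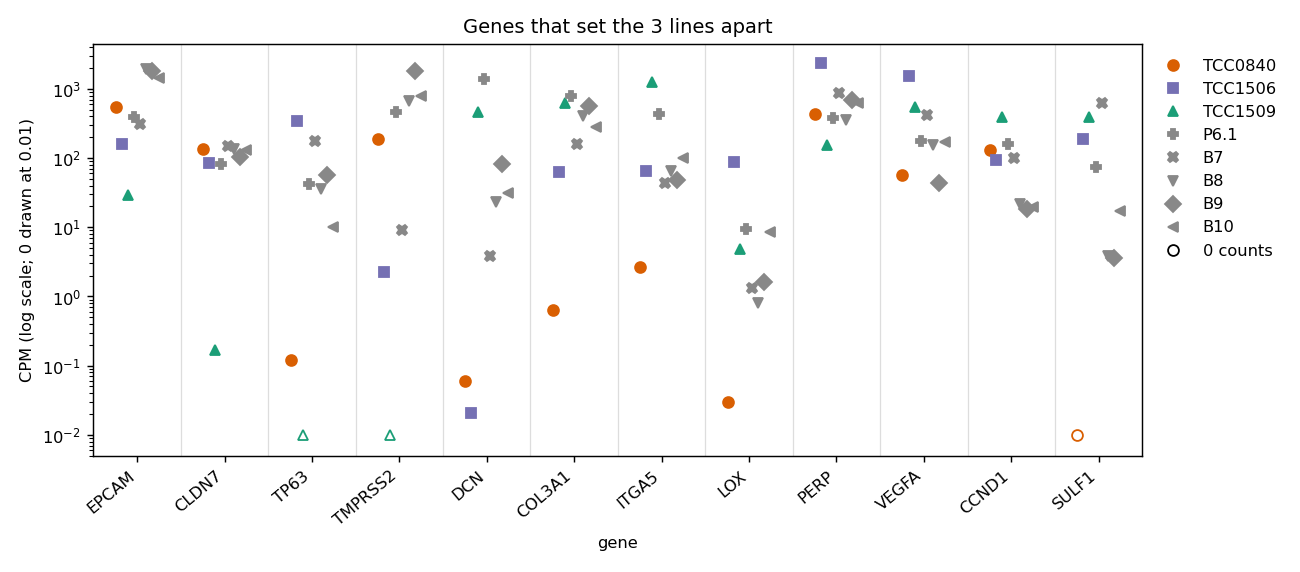
CPM (log scale, 0 drawn at 0.01 as open symbols) of 12 genes whose position against the 5 tissues depends on the line. CLDN7 and EPCAM are lowest in TCC1509, SULF1 in TCC0840, and DCN and TP63 are each kept by 1 line.

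Some genes lay beyond the tissues in opposite directions. ITGA5, the fibronectin receptor chain, had 2.70, 65.4 and 1249 CPM in the lines and 428, 43.8, 65.0, 48.2 and 102 CPM in the tissues, so TCC0840 lay 16.3-fold below the lowest and TCC1509 2.92-fold above the highest. LOX, the lysyl oxidase that cross-links collagen and elastin, had 1 count in TCC0840 and 88.8 and 4.84 CPM in TCC1506 and TCC1509, with 9.30, 1.34, 0.813, 1.60 and 8.63 CPM in the tissues. TCC1506 was 9.55-fold above them; its 3 libraries ranged from 16.4 to 127 CPM. PERP, a desmosomal target of p53, had 441, 2404 and 155 CPM in the lines and 386, 863, 357, 698 and 622 CPM in the tissues, above them in TCC1506 and below them in TCC1509. The 2 lines differed by -4.01 ± 0.24 (log2, adjusted p = 6.34e-07 over libraries). HOOK1, a linker of cargo to microtubules, followed the same order, with 21.9, 39.6 and 0.779 CPM and 2.55 to 18.7 CPM.

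Of the 10 integrins outside leukocytes, 6 were in no line beyond 2-fold of the tissues, a share below the 73.45% of all genes. Only ITGA11, a collagen receptor of fibroblasts, was below them in all 3 lines, with 0, 0.0208 and 0.0210 CPM against 13.8, 2.94, 2.01, 3.74 and 1.94 CPM. ITGB1, the common beta chain, had 619, 712 and 2818 CPM and 2129, 982, 388, 553 and 549 CPM. ITGA3, a laminin receptor chain, had 413, 1930.1 and 1739.8 CPM and 1424, 1347, 255, 299 and 210.5 CPM. ITGAV, the vitronectin receptor chain, was low in TCC1506, at 194 CPM against 402 to 1354 CPM.

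Housekeeping and signalling lists were set against the same share of 73.45% over all genes. All 15 RNA processing genes lay within 2-fold of the range of the tissues in every line, with a median log2 fold change of 0.10. POLR2B, a subunit of RNA polymerase II, had 227, 411 and 316 CPM in the lines and 197, 647, 211, 155 and 149 CPM in the tissues. POP4, a subunit of RNase P, had 35.0, 69.6 and 61.7 CPM and 27.2 to 93.3 CPM. Of the 10 TGF-beta receptor and SMAD genes, 9 lay within that range in every line, among them TGFBR1, with 150.0, 109.9 and 396 CPM in the lines and 70.3 to 319 CPM in the tissues. Of the 16 growth signalling genes, 12 lay within it, close to the share of all genes, among them YAP1 (170.4, 387 and 307 CPM against 157 to 319 CPM) and PTK2, the focal adhesion kinase (149, 272 and 280.4 CPM against 84.6 to 402 CPM). HRAS had 38.9, 75.7 and 38.4 CPM in the lines and 25.5, 35.7, 18.2, 18.8 and 26.7 CPM in the tissues, so all lines were above them, TCC1506 by 2.12-fold. IRS1, an adaptor of the insulin receptor, had 6.00, 26.1 and 33.5 CPM and 16.4, 13.2, 1.79, 3.47 and 0.819 CPM, above the tissues in TCC1506 and TCC1509, by 2.04-fold in the latter. Of the 8 lipid synthesis genes, 7 lay within it, and FASN, fatty acid synthase, had 850.5, 1078 and 1319 CPM in the lines and 364 to 1559 CPM in the tissues. In these 4 lists edgeR called 0 genes, with 3 members higher and 0 lower at an unadjusted p under 0.05, and DESeq2 called 0.

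Hormone receptors and prostate markers were uneven in the lines. ESR1, the estrogen receptor, was below all tissues in all 3 lines, by at least 2-fold in TCC0840 and TCC1509 and by 1.38-fold in TCC1506. It had 0.121, 2.27 and 0.0421 CPM in the lines and 18.9, 3.13, 67.5, 134 and 93.6 CPM in the tissues. For ESR1 the log2 fold change was -6.46 ± 1.77 (adjusted p = 0.117 by edgeR, and 4.91e-06 by DESeq2). PGR, the progesterone receptor, had 0 counts in TCC0840 and TCC1509 and 16.5 CPM in TCC1506, with 3.29, 8.96, 0.542, 0.534 and 0.521 CPM in the tissues. PSCA, prostate stem cell antigen, had 43.6, 0.0833 and 0.421 CPM in the lines and 91.4, 10.4, 49.7, 1035 and 54.3 CPM in the tissues, so TCC0840 alone lay within them. GSTP1, glutathione transferase, had 176, 234 and 134 CPM and 40.5 to 319.8 CPM, with all lines inside the range. Of the 5 tested members, 0 were called by edgeR and 1 by DESeq2, and 1 was lower at an unadjusted p under 0.05.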

How the data were processed

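The authors trimmed the reads with Trimmomatic (version 0.36), aligned them with STAR (2.5.3) to CanFam3.1 with Ensembl annotation 94, and deposited expected counts per gene and lane as estimated by RSEM (1.3.0). Here the 4 lanes of a library and then the libraries of a line were added up and rounded. Of the values above 0, 17.2% were not whole before rounding. Lane tables of samples outside this comparison were not used. Genes with at least 10 counts in all 3 lines or all 5 tissues were tested with edgeR (4.0.16, R 4.3.3), TMM scaling and the quasi-likelihood test with Benjamini-Hochberg adjustment, and called with a 2-fold change or more where the adjusted p did not exceed 0.01. Each line was also tested against the tissues, and the lines were compared over their 8 libraries. The ± after a log2 fold change or difference is its absolute size divided by the square root of the test's F statistic. Where lines had close to 0 counts, the log2 value depends on the small count that edgeR adds and is no bound. This holds for PXDN, CSF1R, ITGAX and DLA-79 and for the DCN difference between TCC1509 and TCC1506, among others. Per the labels, TCC1506 and B7 came from 1 dog and TCC1509 and P6.1 from another, and these 4 samples were also fitted with the dog as a block, which leaves 1 residual degree of freedom. DESeq2 (1.42.0) and limma-voom (3.58.1) were alternatives, and the scripts were tested on simulated data. The spread within a group covers 3 lines and 5 dogs' tumors, and the spread within a line covers its cultures. The position against the range of the tissues was taken on log2 CPM with a prior count of 2 and a margin of 2-fold, over genes with at least 1 CPM in all tissues or in at least 1 line. Libraries of a line differed by 28.1 to 114 times counting noise (a ratio of observed to Poisson variation) and lanes by 1.05 to 1.16, so no libraries were duplicates. Symbols came from the study's own lists. Named genes were the called genes with the largest changes and the cell type markers. Up to 4 called members of each list, or else its 2 most abundant, were also named. For each line, the 6 genes farthest outside the tissues were added, among those within the tissues in the other lines and different from both over libraries. Other genes were named after their values were seen, as members reported with their list. The members and lists were chosen with earlier results of these data known. Results for some genes are not reported here.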

Additional observations from a re-analysis of the deposited data

Results flagged for a closer look

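Among the named genes, 128 were examined for 1 tissue that lies far from the other 4, and 9 had such a tissue; chance flags about 1 in 20 groups. B7 was far below the other tissues for ADGRA2 (2.56 CPM), VWF (30.3 CPM), CD74 (111 CPM), TMPRSS2 (9.15 CPM) and SLIT2 (0.896 CPM), and far above them for POLR2B (647 CPM). B8 was far below the others for ARMCX3 (2.87 CPM) and HMGN3 (0.922 CPM). P6.1 was far below the others for NEK2 (4.85 CPM).

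For 6 named genes, all libraries of 1 line lay above all 5 tissues and all libraries of another line lay below them, and both lines differed in edgeR's test over libraries, which covers the spread between cultures of a line. On the log2 scale, TCC1509 minus TCC0840 was 8.80 for ITGA5, 15.09 for GDF15 and -11.46 for STARD4. TCC1506 minus TCC0840 was 11.17 for LOX, and TCC1509 minus TCC1506 was -4.01 for PERP and -5.70 for HOOK1. GDF15 in TCC0840 and STARD4 in TCC1509 had 0 counts and LOX in TCC0840 had 1 count, so these 3 differences depend on the prior count and are no bounds. For GDF15 the lowest tissue had 3 counts, so its place below the tissues in TCC0840 rests on few reads.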

How the results depend on the processing

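The test of 3 lines against 5 tissues depended on its settings: from 32 called genes it went to 699 with DESeq2, 264 with limma-voom and the dog as a random block, 307 at an adjusted p of at most 0.05, 1 with 1 library per line, 0 with edgeR's own count filter (filterByExpr), and 0 to 222 with 1 line or tissue left out. It was 0 with the libraries placed in the tissues' sample-number series, a fit that leaves out TCC1509 and replicate 3 of TCC1506. The labels reuse the sample numbers and name no series, so this placing is an inference. Leaving out TCC1509 alone also gave 0 calls, so number series and line cannot be told apart there. By the same placing, TCC0840 and TCC1509 fall in different series, so the calls between these lines cannot be told apart from series either. In single lines, TCC1506 gained 3 calls without a count filter and had 0 to 6 with 1 tissue left out (6 without B7); TCC0840 and TCC1509 had 0 to 0. Only 2 dogs gave both a line and a tissue. On these 4 samples, a choice made after seeing the data, the fit with the dog as a replicate block called 0 genes by edgeR (845 at an unadjusted p under 0.05) and 489 by DESeq2, and the edgeR fit without the block called 0 (876).

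Of the range counts, genes above the tissues in all 3 lines went from 41 to 115 and 5 with margins of 1.5-fold and 4-fold, 27 with RLE scaling, 25 with 1 library per line, and 47 to 141 with 1 tissue left out. Genes below the tissues in all lines, 315 at first, numbered 325 to 663 with 1 tissue left out, the last without B7. Leaving out a tissue can only narrow the range. The counts for all 3 lines could therefore only stay or rise, and only the size of the rise is informative. Genes in 1 or 2 lines went to 2844 higher at 1.5-fold, and to 1248 lower and 409 higher at 4-fold, and with 1 tissue left out to 2062 to 2415 lower and 1597 to 2266 higher. Without TCC1509, a count chosen after seeing the data, 400 genes lay below the tissues in both TCC0840 and TCC1506. This count cannot be set directly against the main counts, where 315 genes lay below in all 3 lines and 116 in TCC0840 and TCC1506 alone. Calls between the lines stayed between 5505 and 6330 with 1 library left out. Under RLE scaling the 54 named genes retested in the comparison of 3 lines with 5 tissues changed neither direction nor call, and of 78 positions of named genes against the tissues 4 moved (HOOK1, IRS1, NCAPH2 and NEK2).

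The sign of the 3 against 5 log2 fold change turned for genes that were not called. With 1 sample left out in turn it ranged from -0.11 to 0.23 for ACSL3, -12.92 to 1.91 for DCN, -0.35 to 0.22 for GSTP1, -0.63 to 0.99 for ITGB1, -0.17 to 1.09 for JUP, -0.81 to 0.83 for LAMA3, -0.073 to 0.47 for NUMA1, -0.38 to 0.19 for PCM1, -1.12 to 1.12 for PERP, -0.13 to 0.67 for POLR2B, -0.31 to 0.26 for POP4, -2.42 to 0.026 for SLIT2, -0.32 to 0.91 for TGFBR1, -10.17 to 1.53 for TP63, -0.19 to 0.34 for YAP1. TP63 turned without TCC1506, DCN without P6.1. With filterByExpr it was 0.047 for ACSL3. With the libraries of the tissues' number series, which also leaves out TCC1509, it was -0.0028 for FASN, 0.00070 for GSTP1, -0.68 for ITGB1, -0.048 for NUMA1, -0.0027 for SNAI2, -0.32 for TGFBR1. With limma-voom and the dog as a random block it was 0.42 for GSTP1, -0.49 for LAMA3, -0.15 for PERP, 0.096 for POP4, -6.16 for TP63. Without a count filter it was 0.13 for ACSL3, 0.059 for GSTP1, 0.023 for PCM1, 0.071 for POP4. In the 2 dogs it was 1.12 with the replicate block in edgeR, 1.11 in DESeq2 and 0.887 without the block for GSTP1, in the same order -1.07, -1.08 and -0.00752 for LAMA3, -0.0993, -0.109 and -0.297 for POLR2B, 0.369, 0.359 and 0.297 for POP4. With the block in edgeR and DESeq2 it was -0.142 and -0.152 for ITGB1, -0.0289 and -0.039 for PERP, -0.0527 and -0.0622 for TGFBR1, -4.33 and -6.51 for TP63. Without the block it was 0.0295 for OCLN, 0.0582 for PCM1, -0.0619 for PTK2. The cause was not tested.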
